A study of Mus musculus with 6 samples.

Results

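General capillary endothelial cells of the mouse lung were defined here by a gate on single-cell transcripts, and 258 of 44096 kept barcodes met it. A barcode was kept with at least 500 genes, at least 1000 UMIs (unique molecular identifiers, 1 per captured transcript) and under 15% mitochondrial UMIs. The endothelial gate then asked for at least 3 of Pecam1, Cdh5, Cldn5 and Egfl7 with a UMI and no UMI of Ptprc, Lamp3, Col1a2 or Foxj1, which mark leukocytes, type 2 cells, fibroblasts and ciliated cells. It held 2320 barcodes. Members of the class had at least 1 UMI of Gpihbp1, fewer than 3 UMIs of Vwf, none of Prox1, and not both Car4 and Ednrb. These genes were used to choose the members, so their levels are a description and were not tested.

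The series held 6 droplet libraries of CD45-negative lung cells from mice labelled C57BL/6, 4 labelled control and 2 labelled Zip8 knockout. In the knockout mice a floxed Slc39a8, which encodes the zinc importer ZIP8, was to be deleted by tamoxifen through a CreERT2 driven from the surfactant protein C promoter, with a tdTomato reporter at Rosa26. The mice were 10 to 12 weeks old, from lines backcrossed to C57BL/6J for more than 6 generations, and all were sampled 2 weeks after 4 doses of tamoxifen; the controls were littermates. Their alleles are not stated for these libraries; in an organoid measurement of the same study the mice without floxed Slc39a8 carried the CreER and the reporter. The study asked what ZIP8 does in alveolar type 2 cells, and the driver is not an endothelial one. The number of mice behind each library is not given, so p-values measure the spread between libraries, which may be technical. Type 2 cells, gated by their own genes, carried Slc39a8 at 223, 225, 185 and 209 CPM (UMIs of a gene per 1000000 UMIs of the class in a library) in control 1 to 4, and 204 and 214 CPM in knockout 1 and 2. These values overlap, but where in Slc39a8 the deleted part lies is not given in the sources used here, and counts of 3′ ends can also read a transcript that lacks it, so they do not check the labels. Esr1, the oestrogen receptor of which CreERT2 holds a domain, stood in the type 2 cells at 0.237, 0, 0.534 and 0.21 CPM for control 1 to 4, against 17.3 and 20.7 CPM for knockout 1 and 2. The groups did not overlap (log2 6.05, SE 0.31, adjusted p = 0.000309, edgeR quasi-likelihood test, BH), so Esr1 separated the libraries as they are labelled; whether its UMIs came from the transgene was not tested. If the low Esr1 of the controls means that they lacked CreERT2, its presence and the deletion of Slc39a8 cannot be told apart below. This was not tested. A direction given below is that of the libraries labelled knockout.

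Capillaries of the alveolus are lined by endothelial cells of a pair of kinds. General capillary cells carry the KIT receptor and act as the progenitors of the capillary bed, and aerocytes (Car4 and Ednrb high) spread thinly over the air sacs for gas exchange. GPIHBP1 holds lipoprotein lipase on the luminal face of capillaries, where circulating triglycerides are split. Lung capillary endothelium can also present antigen: MHC class II molecules pair an alpha and a beta chain, CD74 chaperones the pair, and interferon gamma is the classical inducer of both.

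Control 1 to 4 held 38, 44, 22 and 82 members, and knockout 1 and 2 held 44 and 28. As a share of gated endothelial cells they were 12.03%, 8.13%, 6.57% and 13.7% in the controls and 14.4% and 12.6% in the knockouts. The means were 10.1% ± 3.31 (SD, n = 4) and 13.5% ± 1.32 (SD, n = 2), and the groups overlapped (two-sided exact permutation test over 15 splits, p = 0.2, where the smallest possible p is 0.0667). As a share of all kept barcodes the means were 0.557% ± 0.275 and 0.635% ± 0.156 (exact permutation p = 0.8), and the sign of this difference turned with the cell filter. Under the same stricter filter, of 1000 genes and 10% mitochondrial UMIs, the difference in the share of gated cells shrank from 3.39 to 0.373 percentage points. The members were shallow cells. Their median was 1879 UMIs, against library medians over kept barcodes of 6107 to 12463, and their summed UMIs were 88555, 137271, 44002 and 166470 in the controls and 82976 and 52740 in the knockouts.

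The libraries shared cell barcodes: 2957 kept barcodes were common to control 2 and control 3, the pair with most, and 311 to control 4 and knockout 2, the pair with fewest. Among the members 2 of 258 shared a barcode, 1 in control 2 and 1 in control 4. Haemoglobin UMIs stood out in 3 members. One in control 2 had 2400 of 4808 UMIs from haemoglobin genes, one in control 4 had 2189 of 3490, and a further one in control 4 had 11 of 1588, while no other member exceeded 6.

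A larger group of members went against the name of the class. Of the 258 members, 47 (18.2%) carried at least 2 of the lymphatic genes Mmrn1, Reln, Flt4 and Ccl21a without a Prox1 UMI, and 41 carried all of them. Within these 47 the general capillary markers Sema3c and Aplnr had no UMI in any library and Kit had 1 UMI in all. Other markers were present: pooled Plvap was at 502 CPM, Ptprb at 255 and Cd93 at 26.8. The 211 members without lymphatic genes had 1774, 2638 and 1594 CPM of these, and the lymphatic class 437, 299 and 103 CPM. The 47 members also held more UMIs than the others, with a median of 2803 against 1757. They made up 21.1%, 34.1%, 27.3% and 13.4% of the members of control 1 to 4, and 9.09% and 10.7% in knockout 1 and 2. The knockout shares were the lowest of the 6, and the means of 24.0% ± 8.82 and 9.90% ± 1.15 gave an exact permutation p of 0.133. As a choice made after seeing the data, the genotype comparison was repeated without these members and the haemoglobin members, which left 208 cells (30, 28, 16 and 69 in the controls, 40 and 25 in the knockouts).

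**Figure D1:**
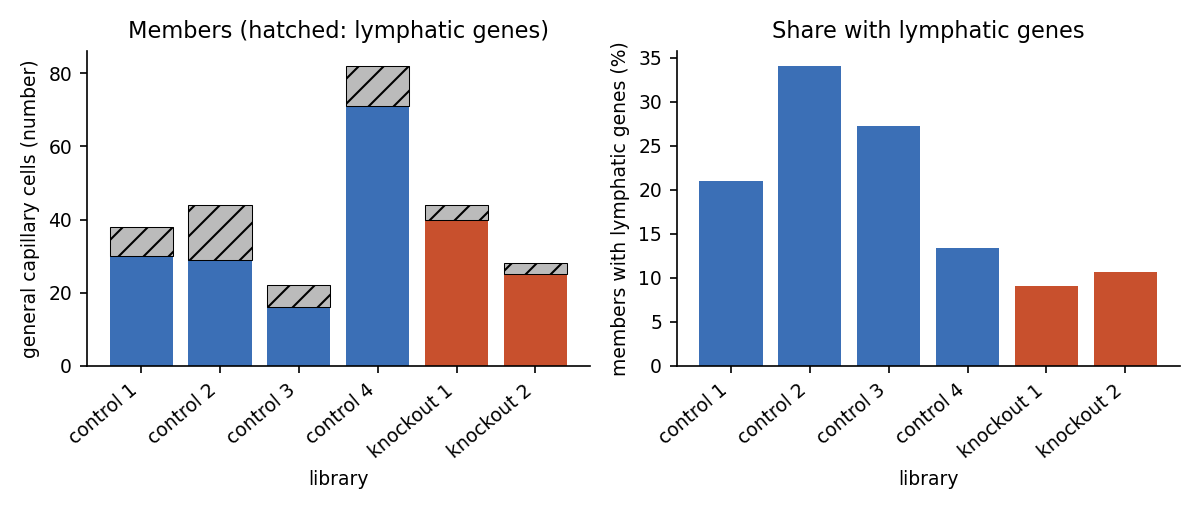
Left, number of general capillary members in each library, with the hatched part carrying at least 2 lymphatic genes; right, the percentage of members with lymphatic genes. Control 4 held most members (82) and control 3 fewest (22), and both knockout shares (9.09% and 10.7%) lay below all 4 controls (13.4% to 34.1%).

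The markers of general capillary cells that the gate did not use were present in every library. Kit stood at 655, 459, 500 and 493 CPM in control 1 to 4 and at 807 and 948 CPM in knockout 1 and 2, against no UMI in the 79 aerocytes and 19.7 CPM ± 13.9 (SD, n = 6 libraries) in the 1379 Vwf-high large-vessel cells. Both knockout libraries were above all controls, but the genotype difference was log2 0.72 (SE 0.25) and did not pass the quasi-likelihood test of edgeR (Benjamini-Hochberg adjusted p = 0.357). It shrank to 0.40 in the 208 cells. After thinning each cell to 1000 UMIs, Kit was seen in 36.8%, 34.1%, 40.9% and 35.4% of the control members and in 59.1% and 53.6% of the knockout members. Within the 208 cells the shares ran from 39.1% to 56.3% in the controls and stood at 65.0% and 60.0% in the knockouts. In fibroblasts, which should lack it, the share was at most 0.135%.

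Plvap, which forms the diaphragms of endothelial pores, had 1527 CPM ± 441 (mean ± SD over 6 libraries) in the members, 2.96 ± 7.26 in aerocytes and 1056 ± 201 in large-vessel cells. Sema3c, a secreted guidance factor, had 1009 CPM ± 329 in the members against 152 ± 149 and 178 ± 79.2. Aplnr, the apelin receptor, had 159 CPM ± 60.0 against 4.99 ± 12.2 and 16.3 ± 8.19. Plvap thus set the members apart from aerocytes alone, and Sema3c and Aplnr from both classes, as a description. Gpihbp1 itself was at 1702 CPM ± 312 in the members, 57.5 ± 31.0 in aerocytes and 344 ± 122 in large-vessel cells.

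**Figure D2:**
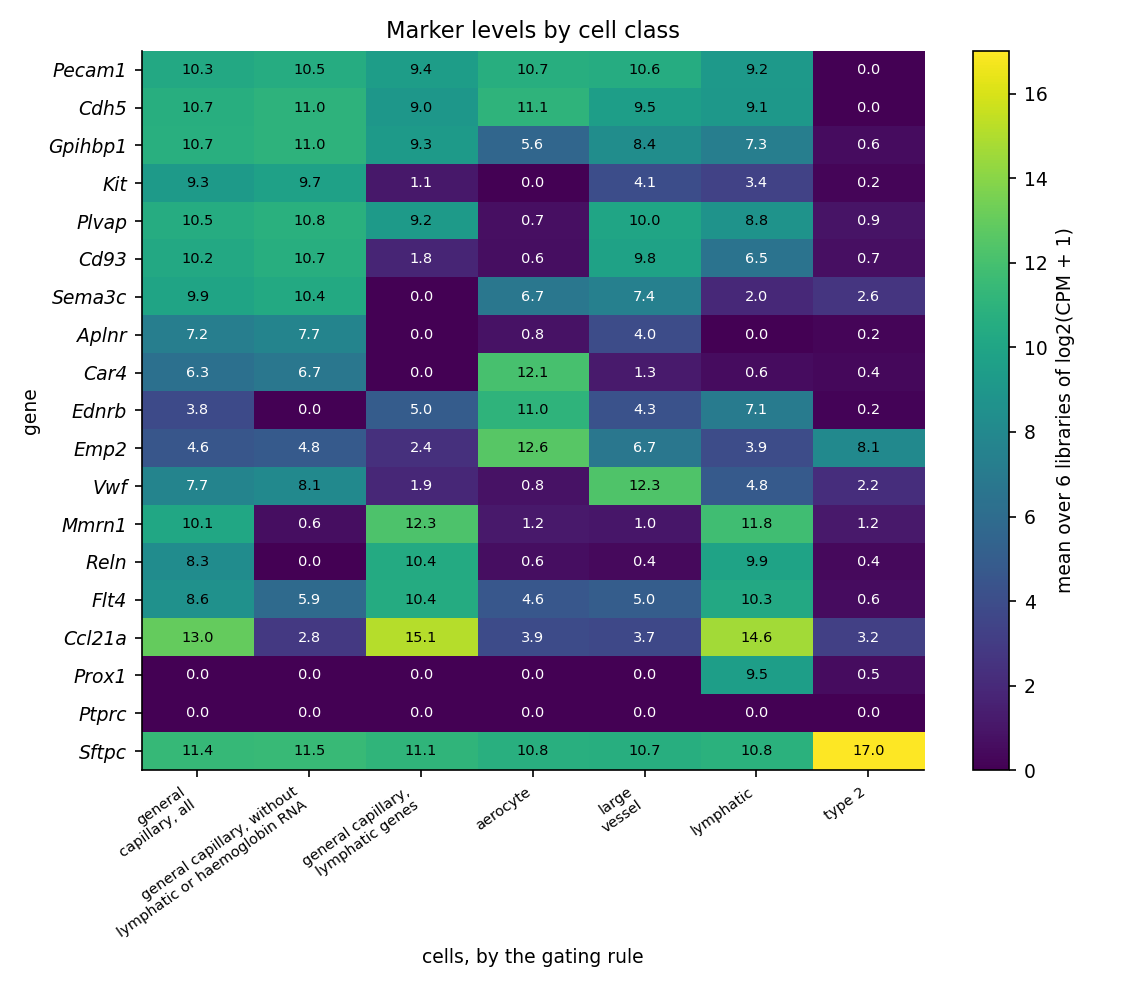
Mean over the 6 libraries of log2(CPM + 1) for marker genes (vertical axis) in each gated class (horizontal axis), printed in each cell, with lighter colours for higher values. The members carry Gpihbp1, Kit, Plvap and Sema3c, aerocytes carry Car4 (4243 CPM) and Ednrb (2185 CPM), and Kit is at 0 in aerocytes.

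The cells on each side of the limits were compared as a description. Of the members, 55 held exactly 1 Gpihbp1 UMI; pooled, they had 247 CPM of Kit and 18854 CPM of Ccl21a, against 696 and 6162 CPM in the 203 members with more Gpihbp1. These averages mix cells of unlike kinds: 24 of the 55 carried lymphatic genes and held no Kit UMI, and the other 31 had 548 CPM of Kit and 53.03 CPM of Ccl21a, against 847 and 32.8 CPM in the 180 members with more Gpihbp1 and no lymphatic genes. The 125 endothelial cells just outside, with none, had 82.0 CPM of Kit and 17439 CPM of Ccl21a. At the other edge, 33 members held 2 Vwf UMIs and had 856 CPM of Kit, and the 18 cells left out with 3 Vwf UMIs and Gpihbp1 still had 620 CPM of Kit and 2479 CPM of Gpihbp1. Gpihbp1 chose all of these cells, so of this pair Kit alone is not fixed by the rule.

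Beyond the markers, the genes that differed most from aerocytes were taken by a fixed rule: the 15 largest mean differences of log2(CPM + 1) of 1 sign in all 6 libraries. Higher in general capillary cells were Plvap, Cd93, Hmcn1, Kit, Cxcl12, Tek, Gja4, Itga6, Sema3g, Prss23, Ptprb, Npr3 and Tmem2, with the lymphatic Ccl21a and Mmrn1. Hmcn1, a large matrix protein, had 692 CPM ± 150, Cxcl12, a chemokine that holds CXCR4-bearing cells, had 621 ± 117, and Gja4, the gap junction protein connexin 37, had 314 ± 140, each with no UMI among the 306364 UMIs of aerocytes. Against the 3 counts that a count of 0 allows, pooled Hmcn1 was at least 66.2-fold higher, Cxcl12 at least 62.7-fold, Kit at least 61.1-fold and Gja4 at least 28.7-fold. Tek, the angiopoietin receptor, had 798 CPM ± 216 against 7.70 ± 18.9, and Ptprb, the phosphatase that acts on it, had 2075 ± 399 against 19.4 ± 22.4. Receptor and phosphatase were thus both high in the members and near the floor in aerocytes. Without the lymphatic and haemoglobin members, 13 of the 15 still differed from aerocytes by over 4 log2 units, and the exceptions were Ccl21a (-1.09) and Mmrn1 (-0.54).

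The opposite list was led by Fibin, Rprml, Cdkn2b and Emp2. Apln, the apelin peptide, had 385 CPM ± 123 in aerocytes and 2.22 ± 3.46 in the members, the reverse of its receptor Aplnr. Rprml and Cdkn2b, a cyclin-dependent kinase inhibitor, had no UMI among the 572014 UMIs of the members and were at least 75.9-fold and 57.3-fold higher in aerocytes. Lipoprotein lipase itself (Lpl) was low in the members, at 104 CPM, while its anchor Gpihbp1 was a gating gene and Cd36, the fatty acid carrier, had 2248 CPM ± 463.

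Against large-vessel cells the same rule mostly returned genes whose excess depended on the lymphatic and haemoglobin members. Of the 15 genes higher in the members, 11, among them Ccl21a, Mmrn1, Reln, Thy1 and Pdpn, were no longer over 1 log2 unit higher once the lymphatic and haemoglobin members were left out. Maf was then at -1.72 and the others lay between -0.86 and 0.04. Kit, Wif1 and Car4 kept differences of 5.66, 5.62 and 5.47, and Mrc1 one of 1.34. In the 208 cells, a list chosen after seeing the data went on with Scn7a, Prx, Casc4, Dpp4 and Aplnr. Wif1, a secreted inhibitor of WNT ligands, had 193 CPM ± 96.8 in the 208 cells against 3.37 ± 3.06 in large-vessel cells. Scn7a, a sodium channel, had 1285 CPM ± 330 against 45.3 ± 16.1, and Prx (periaxin) had 168 ± 34.5 against 6.63 ± 2.97. Higher in large-vessel cells were Vcam1 (1562 CPM ± 482 against 27.1 ± 17.4) and Selp (239 ± 101 against 7.28 ± 17.8), adhesion molecules that bind leukocytes, and Fabp4 (565 ± 281 against 14.3 ± 19.0), a fatty acid-binding protein.

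RNA of other cells was present in the members. Scgb1a1 of airway club cells stood at 18026 CPM ± 5779 and Sftpc of type 2 cells at 3115 ± 1688. The type 2 genes as a list summed to 5714, 1770, 4386 and 8644 CPM in the controls and 4604 and 4494 in the knockouts, overlapping between the groups, and fibroblasts carried 2229 to 5813 CPM of them. Of 13 leukocyte genes 11 were at 0, Ptprc by the gate; Fcer1g was the highest at 22.2 CPM, and the list summed to at most 114 CPM in a library. Slc39a8 had 9 UMIs in all members, 7 in the controls and 2 in the knockouts, too few to pass the filter on low counts. Sirt1, the deacetylase that the study places downstream of zinc, had 25 UMIs (17 and 8) and was also below the filter.

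The genotype comparison asked how the endothelium differed when the deletion was aimed at type 2 cells. UMIs were summed over the members of each library, 1846 genes passed the filter on low counts, and the quasi-likelihood test of edgeR, adjusted by the Benjamini-Hochberg (BH) method, called 16 genes at adjusted p under 0.05, 0.867% of those tested. Of these 8 were higher in the knockout libraries and 8 lower, 0.433% each way. Without knockout 1 the same edgeR fit called 0 genes, with 166 at unadjusted p under 0.05. At unadjusted p under 0.05 there were 160 (8.67%), 70 higher (3.79%) and 90 lower (4.88%). The median log2 difference over all genes was -0.01, and 49.2% of genes lay above 0. The 8 higher genes were Cd74, H2-Aa, H2-Ab1, H2-Eb1, H2-Q6, H2-Q7, Psmb9 and Irf1, and the 8 lower ones Igfbp5, Serping1, Cp, Fgl2, Lcn2, Cyr61, Reln and Lyve1.

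Of the 8 higher genes 6 lie in the major histocompatibility complex on chromosome 17 of mm10, within chr17:34181987-35443773. From one end to the other they are Psmb9 (34181987 to 34187764), H2-Ab1 (34257689 to 34269419), H2-Aa (34282744 to 34287823), H2-Eb1 (34305867 to 34316674), H2-Q6 (35424850 to 35430055) and H2-Q7 (35439155 to 35443773). Irf1 lies on chromosome 11 (53770014 to 53778374). The bases just before the start sites of 4 of them are shown because these genes moved together. They are from RefSeq (GRCm38.p6), written 5′ to 3′ on the strand of the gene and ending at the base before its RefSeq start. H2-Aa is at chr17:34287824-34287973 on the minus strand, H2-Eb1 at chr17:34305717-34305866 on the plus strand, Psmb9 at chr17:34187331-34187480 on the minus strand and H2-Q6 at chr17:35424700-35424849 on the plus strand. The Psmb9 stretch lies inside the span given above, because the mm10 annotation and RefSeq place its start at different bases. Capitals mark the letters CTGATTGG, the core of the Y box of MHC class II promoters, or their reverse complement.
H2-Aa: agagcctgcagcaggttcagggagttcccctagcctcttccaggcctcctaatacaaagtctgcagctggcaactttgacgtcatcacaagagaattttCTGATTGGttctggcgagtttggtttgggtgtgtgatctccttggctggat
H2-Eb1: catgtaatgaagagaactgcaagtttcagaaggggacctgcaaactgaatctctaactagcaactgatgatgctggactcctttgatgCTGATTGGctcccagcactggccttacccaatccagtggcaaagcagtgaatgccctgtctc
Psmb9: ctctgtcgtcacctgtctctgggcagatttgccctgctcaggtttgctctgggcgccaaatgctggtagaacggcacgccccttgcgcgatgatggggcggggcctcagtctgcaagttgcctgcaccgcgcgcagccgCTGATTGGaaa
H2-Q6: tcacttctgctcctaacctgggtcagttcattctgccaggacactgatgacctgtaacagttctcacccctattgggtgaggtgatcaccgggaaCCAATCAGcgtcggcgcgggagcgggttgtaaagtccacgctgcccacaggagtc

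RefSeq windows from 250 bases before to 50 after a start matched 6 of the 8 higher genes by symbol (7 windows, since Irf1 has more than 1). Cd74 and H2-Ab1 had no matched window. Searched on both strands, CTGATTGG was found for 5 of the 6 genes, in 5 of 7 windows (71.4%), against 1346 of 32851 windows over all genes (4.10%), and in 0 of 6 windows of the lower genes. Its first base lay 51 bases before the start of H2-Aa, 62 before H2-Eb1, 11 before Psmb9, 55 before H2-Q6 and 16 before H2-Q7. H2-Q6 and H2-Q7 are close paralogs with nearly the same window. A second set of letters, TTCNNNGAA, which overlaps no CTGATTGG, was in 1 of 7 windows of the higher genes (14.3%, Irf1) and 1 of 6 of the lower genes (16.7%), against 8.30% of all windows. CTGATTGG was taken as the Y box of MHC class II promoters, and MHC class II genes are among the higher genes. Its excess over all windows was thus set in part by that choice and was not tested. Shares for MHC genes that were not called are not given here. These matches describe the letters of the windows and show no binding.

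Of the MHC class II list 4 genes rose. Of its 7 genes 6 were tested, all 6 had values above 0 and 4 were called (0.433% of all genes tested were called higher and 49.2% lay above 0), at a median log2 difference of 2.40 against -0.01 over all genes tested, and 2.08 in the 208 cells. Every one of the 6 was higher in both knockout libraries than in every control, where 10.1% of all genes tested were. Cd74, the invariant chain, had 169, 146, 205 and 649 CPM in control 1 to 4 and 3387 and 1479 CPM in knockout 1 and 2. The groups did not overlap, although control 4 stood well above the other controls and knockout 1 well above knockout 2. The log2 difference was 2.96 (SE 0.48, 95% interval 1.93 to 3.98, adjusted p = 0.00802, edgeR quasi-likelihood test, BH), and 2.80 (adjusted p = 0.000891) without the lymphatic and haemoglobin members.

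H2-Eb1, a beta chain, had 113, 94.7, 136 and 168 CPM in the controls and 1073 and 341 CPM in the knockouts, a log2 difference of 2.48 (SE 0.39, adjusted p = 0.00802 in the same edgeR fit). H2-Aa, the alpha chain of the I-A molecule, had 248, 189, 159 and 258 CPM against 1048 and 607 CPM, a log2 difference of 1.91 (SE 0.29, adjusted p = 0.00802, edgeR). Its partner H2-Ab1 had 316, 197, 114 and 354 CPM against 1036 and 664 CPM, a log2 difference of 1.71 (SE 0.34, adjusted p = 0.0357, edgeR). In all 3 chains knockout 1 was the highest library and knockout 2 the next. Without knockout 1 none was called, and H2-Eb1 stood at log2 1.36 and H2-Aa at 1.42 (adjusted p = 0.485 and 0.33, edgeR). In the 208 cells the differences of H2-Eb1, H2-Aa and H2-Ab1 were 2.32, 1.72 and 1.48, each still called. With the lymphatic members alone left out, H2-Ab1 was not called, and it passed in 11 of 21 alternatives. The peptide-loading subunits H2-DMa and H2-DMb1 differed by log2 2.38 and 2.42 on 43 and 46 UMIs and did not pass (adjusted p = 0.235 and 0.197, edgeR; 2.04 and 2.12 in the 208 cells). Ciita, which encodes the master regulator of these genes, had 5 UMIs and was not tested.

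**Figure D3:**
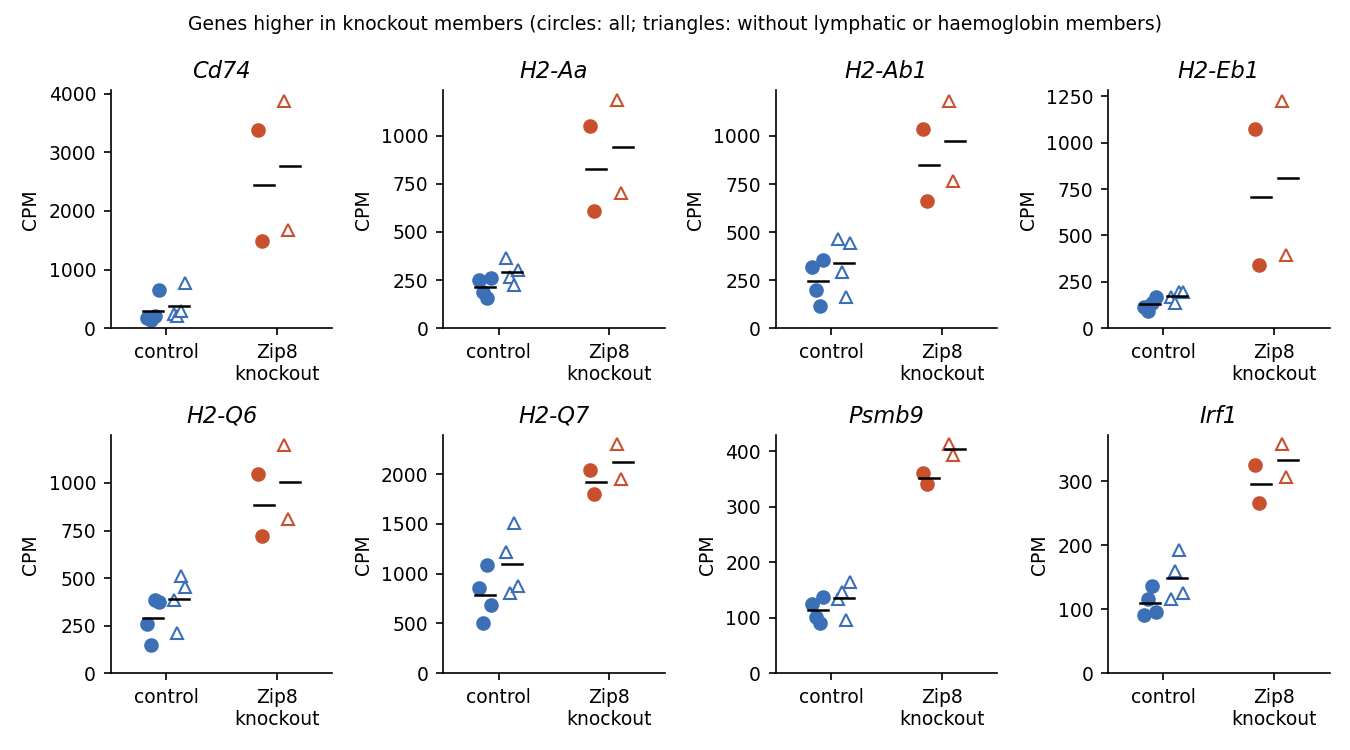
CPM of the 8 higher genes in each library (points), with circles for all members and triangles for the 208 cells without lymphatic genes or haemoglobin and short lines for group means; each vertical axis starts at 0. Both knockout libraries lie above all 4 controls in each gene, with Cd74 at 3387 and 1479 CPM against 146 to 649.

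The Cd74 UMIs were spread over cells more evenly in knockout 1 than in knockout 2. Of the control members 57 of 186 had a Cd74 UMI and of the knockout members 51 of 72, and the highest cell held 26 of the 511 UMIs. In knockout 1, 37 of 44 members had one and the highest cell held 9.25% of the 281 UMIs, while in knockout 2, 14 of 28 had one and a single cell held 25 of the 78 UMIs (32.1%). At 1000 UMIs per cell the shares were 18.4%, 13.6%, 9.09% and 20.7% in control 1 to 4 and 75.0% and 39.3% in knockout 1 and 2. In fibroblasts at the same depth they were 7.29%, 9.74%, 11.5% and 15.4%, then 13.3% and 4.19%, a class that should mostly lack the gene. The members of control 3 were below the fibroblasts of their own library, and those of the other 5 libraries above theirs. The members with lymphatic genes held 2.54% of the Cd74 UMIs.

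The MHC class I list, which also holds the peptide-processing genes, had 14 of 16 genes tested, all 14 above 0 (49.2% of all genes tested were), 3 called and 10 at unadjusted p under 0.05, beside 0.433% called higher and 3.79% at unadjusted p over all genes tested. In 6 of the 14 both knockout libraries were above all controls, as in 10.1% of all genes tested. The median log2 difference was 0.81, and 0.73 in the 208 cells. Psmb9, a subunit of the immunoproteasome, had 124, 102, 90.9 and 138 CPM in the controls and 362 and 341 CPM in the knockouts (log2 1.56, SE 0.29, adjusted p = 0.0284, edgeR quasi-likelihood test, BH). H2-Q6 had 260, 146, 386 and 372 CPM against 1048 and 721 CPM (log2 1.64, SE 0.34, adjusted p = 0.0418, edgeR). H2-Q7 had 858, 503, 1091 and 685 CPM against 2037 and 1801 CPM (log2 1.31, SE 0.28, adjusted p = 0.0469, edgeR). Reads of these near-identical genes may have been split between them, so each value alone is uncertain. The classical H2-K1 had 2383, 2054, 2818 and 2847 CPM against 5363 and 3223 CPM and did not pass (log2 0.75, adjusted p = 0.327, edgeR), nor did H2-D1 (0.37), B2m (0.53), Tap1 (1.36) or Psmb8 (0.86). In the 208 cells these stood at 0.65, 0.25, 0.40, 1.17 and 0.75, with none called. Without the lymphatic and haemoglobin members H2-Q7 was no longer called (log2 1.05, adjusted p = 0.0683, edgeR).

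In the interferon list 10 of 30 genes were tested, all 10 above 0, 1 called and 5 at unadjusted p under 0.05, at a median of 1.05, beside 0.433% called higher, 3.79% at unadjusted p and 49.2% above 0 over all genes tested. In the 208 cells 8 were tested and 0 called, at a median of 0.80. Irf1, a transcription factor that interferons induce, had 90.3, 117, 136 and 96.1 CPM in the controls and 325 and 265 CPM in the knockouts (log2 1.47, SE 0.32, adjusted p = 0.0469, edgeR quasi-likelihood test, BH). It was not called in the 208 cells (log2 1.28, adjusted p = 0.196, edgeR). The GTPases Gbp7 and Ifi47 differed by log2 1.38 and 1.73 (adjusted p = 0.0567 and 0.0899, edgeR; 1.26 and 1.42 in the 208 cells), and the abundant Ifitm3 and Ifitm2 by 0.18 and 0.08. Igtp, of the same GTPase family as Ifi47, had the largest value named here and did not pass (log2 2.40, adjusted p = 0.248, edgeR).

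The rise in Cd74 was also looked for in the neighbouring classes. Large-vessel cells had 157, 143, 239 and 317 CPM of Cd74 in control 1 to 4 and 1303 and 260.4 CPM in knockout 1 and 2, so that only knockout 1 stood apart (log2 1.97, adjusted p = 0.902 in their own edgeR fit). That fit called 0 of 8922 genes, with 470 at unadjusted p under 0.05. Type 2 cells, which carry MHC class II at rest, had 2719, 2971, 2636 and 2593 CPM against 3570 and 3285 CPM (log2 0.28, adjusted p = 0.397, edgeR), in a fit that called 6 of 13303 genes (0.0451%). Both knockout libraries were thus above all controls in type 2 cells too, as they were in the summed MHC class II RNA, at 4145 to 4726 CPM in the controls and 5663 and 5298 CPM in the knockouts. In a joint edgeR fit with library as a block, the Cd74 difference in general capillary cells exceeded that in type 2 cells by log2 2.62 (SE 0.31, adjusted p = 2.32e-13), and that of H2-Eb1 and H2-Aa by 2.06 and 1.46 (adjusted p = 1.83e-05 and 0.00771). This fit called 31 of 11946 genes (0.26%) but took each gene's spread from a trend over all genes, at 47784 degrees of freedom, so its p-values are too small. By limma on the differences within libraries the Cd74 excess was 2.71 (unadjusted p = 0.000871, adjusted p = 0.624) and was not called. Against large-vessel cells the excess of Cd74 was log2 1.34 (adjusted p = 0.134, edgeR), not shown to differ; that fit called 7 of 7335 genes (0.0954%). The aerocytes were too few for such a test, at 20 or more in 1 control and 1 knockout library only, and had 27 to 69 CPM of Cd74. Summed MHC class I RNA was 10068 to 15204 CPM in control members, and 23826 and 16382 CPM in knockout 1 and 2. Aerocytes also had more in both knockouts, at 12877 to 17510 CPM against 26729 and 27530 CPM. Large-vessel cells overlapped, at 6912 to 10797 CPM against 13899 and 9878 CPM. Type 2 cells did too, at 1699 to 2190 CPM against 3051 and 1773 CPM. These sums were not tested.

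**Figure D4:**
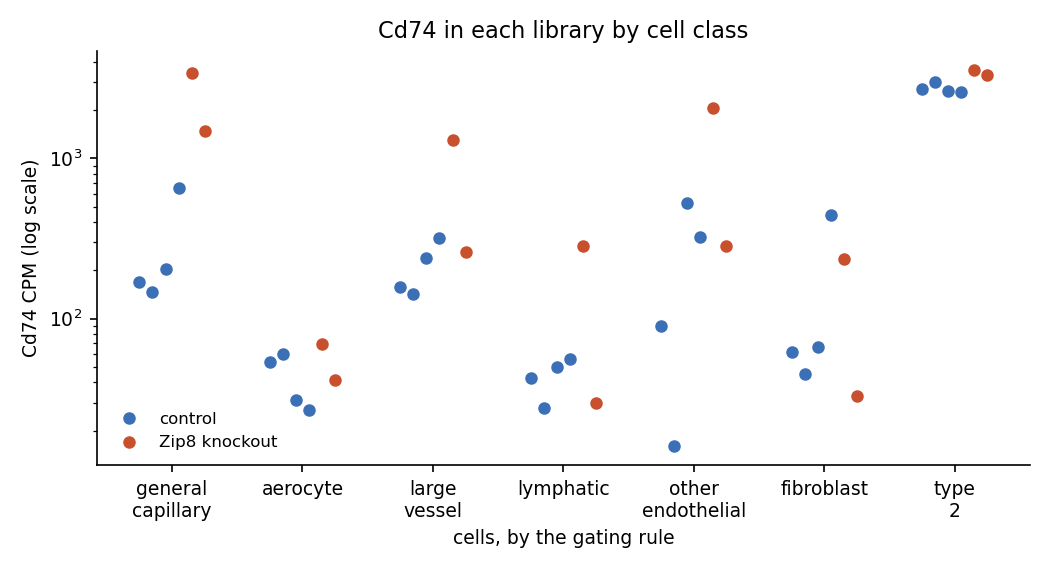
Cd74 in CPM (log scale) in each library (points; blue, control; orange, knockout) for each gated class. The members rise from 146 to 649 CPM in the controls to 1479 and 3387 CPM in the knockouts, while type 2 cells lie between 2593 and 2971 CPM in the controls, with both knockout points above them (3570 and 3285 CPM).

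Of the 8 lower genes Reln is itself a lymphatic marker used to find the 47 members, and most UMIs of the rest that were traced came from the members with lymphatic genes. Igfbp5, a secreted binder of insulin-like growth factors, had 802, 1297, 227 and 541 CPM in control 1 to 4 and 24.1 and 19.0 CPM in knockout 1 and 2 (log2 -5.01, SE 0.79, adjusted p = 0.00802, edgeR quasi-likelihood test, BH). Of its 352 UMIs 338 (96.0%) were in the 47 members with lymphatic genes. Cp, the copper-carrying ferroxidase ceruloplasmin, had 350, 561, 341 and 282 CPM against 36.2 and 56.9 CPM (log2 -3.10, adjusted p = 0.00802, edgeR), with 96.0% of UMIs in those members. Lcn2, the iron-siderophore binder lipocalin 2, had 418, 488, 409 and 535 CPM against 108 and 56.9 CPM (log2 -2.43, adjusted p = 0.00802, edgeR), with 95.1% of UMIs there. Within those members, which were 4 and 3 cells in knockout 1 and 2 with 2 UMIs of Igfbp5, 5 of Cp and 7 of Lcn2 in all, the values are a description of genes chosen for being lower. Igfbp5 had 2458, 2990, 703 and 2569 CPM against 194 and 0, Cp 1053, 1287, 1093 and 1390 CPM against 194 and 421, and Lcn2 1299, 1147, 1406 and 2539 CPM against 486 and 281. The part of the smaller share of these members in the lower totals was not tested.

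The remaining lower genes were Serping1, the inhibitor of complement C1 (log2 -3.41, adjusted p = 0.0411, edgeR), Fgl2, a fibrinogen-like prothrombinase (-2.63, 0.0411), Reln, the secreted glycoprotein reelin (-1.82, 0.0411), Cyr61, a matricellular protein (-2.14, 0.0284), and Lyve1, the hyaluronan receptor (-1.51, 0.0357). Reln had 486, 510, 614 and 324 CPM against 121 and 152 CPM, and no UMI in the 208 cells. Lyve1, listed as a lymphatic marker, was not particular to lymphatic cells here, at 1944 CPM ± 329 in large-vessel cells, 1551 ± 545 in lymphatic cells and 694 ± 263 in the 208 cells. It had 1412, 1085, 1909 and 1682 CPM against 591 and 474 CPM. In the 208 cells its difference was -0.999 (adjusted p = 0.268, edgeR). Cyr61 stood at -0.87 there and was not called (adjusted p = 0.903, edgeR). In the 208 cells 1433 genes were tested and 6 called (0.419%), namely Cd74, H2-Eb1, H2-Aa, H2-Ab1, H2-Q6 and Psmb9, all higher. The knockout libraries were above all controls in each of the 6, where 7.12% of genes tested were. Only 2 of the 8 lower genes could still be tested, and neither was called. Against large-vessel cells all 7 genes called in the interaction were lower, Lcn2 (-5.25), Igfbp5 (-4.65), Cp (-4.01), Fgl2 (-2.59), Cyr61 (-1.94), Emp1 (-2.64) and Apoe (-2.59), and none of these was called without the lymphatic members. This edgeR fit had a median of 48.8 degrees of freedom on 12 sums, most of them borrowed across genes. By limma on the differences within libraries 0 of 7335 genes were called.

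**Figure D5:**
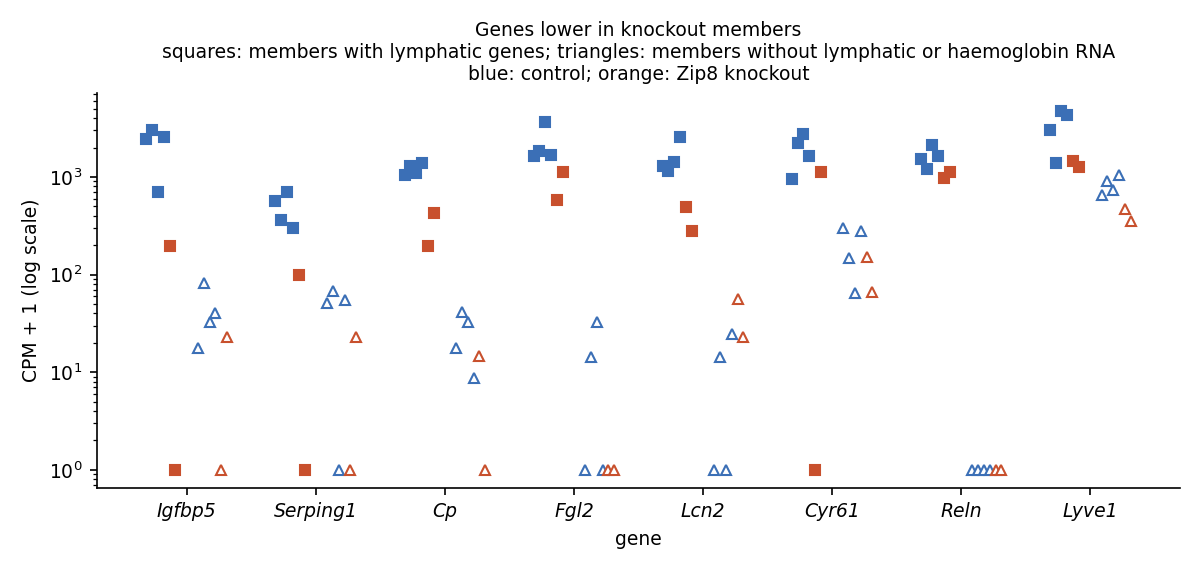
CPM + 1 (log scale) of genes lower in the knockout libraries, per library (blue, control; orange, knockout), with squares for the members with lymphatic genes and triangles for the 208 others. The squares lie above the triangles for most libraries, and within the squares Igfbp5, Cp and Lcn2 are lower in both knockouts than in all controls (Cp at 194 and 421 CPM against 1053 to 1390).

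Lists of endothelial genes, those of lipoprotein handling and junctions included, were looked at without the gating genes Gpihbp1, Pecam1, Cdh5, Cldn5 and Egfl7, whose levels the rule partly fixed. Of the other general capillary markers 8 were tested and 0 called by edgeR, with 2 at unadjusted p under 0.05 (8.67% over all genes tested) and a median of 0.12 (-0.13 in the 208 cells). Of the other endothelial core genes 22 were tested and 0 called by edgeR, with 2 at unadjusted p under 0.05, a share close to that 8.67%, and a median of 0.01 (-0.07 in the 208 cells). Of 7 flow-response genes tested 0 were called by edgeR, and 5 lay below 0 and 2 above, at a median of -0.47 (-0.54 in the 208 cells). At unadjusted p under 0.05, 3 were lower, beside 4.88% of all genes tested, and 0 higher. Klf4, which shear stress induces, had 1118, 1581, 1000 and 1652 CPM in the controls and 747 and 702 CPM in the knockouts (log2 -0.91, adjusted p = 0.283, edgeR quasi-likelihood test, BH). Its relative Klf2 had 2033, 2958, 2295 and 3941 CPM against 1976 and 1517 CPM (log2 -0.70, adjusted p = 0.519, edgeR). The knockout libraries were below all controls in both, where 8.83% of all genes tested were, and in the 208 cells the values were -0.92 for Klf4 and -0.70 for Klf2. Slco2a1, a prostaglandin transporter, had 610, 626, 909 and 847 CPM in the controls and 1012 and 910.1 CPM in the knockouts, with both knockouts above all controls (log2 0.36, adjusted p = 0.736, edgeR; 0.14 in the 208 cells), and Piezo1, a mechanosensitive channel, was at 0.39 (adjusted p = 0.892, edgeR). In the list of VEGF, angiopoietin and apelin signalling 11 genes were tested, 8 below 0 and 3 above, where 49.2% of all genes tested lay above, and 0 were called by edgeR. In that list 3 were lower at unadjusted p under 0.05 (4.88% over all genes), and in 3 both knockouts were below all controls (8.83%). The median of the list was -0.31. In the 208 cells 8 of its genes were tested, 1 above 0 and 0 called, at a median of -0.31. Kdr, the main VEGF receptor, differed by -0.83 (adjusted p = 0.357, edgeR) and by -0.59 in the 208 cells.

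Lists of lipoprotein handling (7 tested, median -0.30), caveolae (4 tested, median 0.05), Notch (6 tested, -0.37), BMP and TGF-beta signalling (12 tested, 0.14), vasoactive mediators (9 tested, 0.24), junctions (6 tested, -0.02) and basement membrane (8 tested, 0.25) had no called gene in the edgeR fit. In the 208 cells their medians were -0.54, -0.14, -0.10, 0.05, 0.09, -0.12 and 0.07, so that of these only the median of caveolae changed sign. Dissociation-stress genes, a sign of handling, had 16 tested and 0 called at a median of 0.12, and 0.40 over 15 tested in the 208 cells; their sum ran from 7453 to 16964 CPM over the controls and was 16824 and 9936 CPM in the knockouts. The type 2 RNA list had 8 tested and 0 called (median 0.12) and the airway list 4 and 0 (0.21). The fibroblast RNA list had 2 tested and 0 called, both below 0, at a median of -1.02 (-1.04 in the 208 cells). By edgeR 1 of them was at unadjusted p under 0.05. Fibroblast RNA summed to 305, 481, 227 and 499 CPM in control 1 to 4 and 193 and 209 CPM in knockout 1 and 2. In the 208 cells the sums were 350, 467, 224 and 522 CPM against 206 and 219 CPM. The source of this difference was not tested. The 4 haemoglobin genes tested differed by a median of -8.65 with 0 called, on the 2 cells rich in haemoglobin. No gene of the zinc importer, zinc exporter, pericyte, leukocyte or platelet lists passed the filter.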

How the data were processed

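The deposited files hold raw UMI counts per gene and barcode, which the authors made from droplet 3′ libraries with Cell Ranger 3.1.0 on mm10; doublet removal is not described, and no doublet caller was run. The lowest barcode held 500 UMIs, and the libraries held 93852253 to 118771907 UMIs over 7374 to 19998 barcodes. Barcodes were filtered and gated as given in the report, and counts of the members were summed per library. Genotype was tested with edgeR 4.0.16 (TMM factors, filterByExpr, quasi-likelihood F test, Benjamini-Hochberg adjustment, threshold 0.05) on 6 libraries in R 4.3.3, and differences between classes with library as a block, with limma 3.58.1 on within-library differences of log2 CPM as an alternative. DESeq2 1.42.0 was another alternative, as were scalings, filters, gates, thinning to 2000 UMIs and leaving out each library. The steps were tested on simulated data. Shares were compared by exact permutation of the library labels. Class levels are CPM, and log2 CPM between classes had 1 added. Counting limits cover counting error only. Motifs and promoters came from RefSeq (GRCm38.p6) and gene positions from the mm10 annotation.

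Genes were named by rule: the gating genes; of the called genes whose libraries did not overlap, the 10 of smallest adjusted p each way; list members that passed and the 4 highest of each list; Slc39a8, Chil1, H2-K1 and Sirt1; the 15 largest differences from aerocytes and from large-vessel cells in each direction, at 50 CPM or more; and markers of other cells. Members, lists and tests were chosen with earlier results of these data known. The groups share replicate numbers, but same-numbered libraries did not deviate together (correlations 0.00468 and 0.0266), so no block entered the main test.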

Additional observations from a re-analysis of the deposited data

Results flagged for a closer look

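Cd74 in control 4 (649 CPM) lay far from the other controls (146 to 205 CPM), with a gap of 0.883 of the range of the group; such a gap arises by chance in a small share of groups of 4. Leaving control 4 out raised the log2 difference of Cd74 to 3.86.

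The genotype difference in general capillary cells differed from that in large-vessel cells for 5 of the genes lower in the knockout libraries, by the interaction test. The excess was log2 -5.25 for Lcn2, -4.65 for Igfbp5, -4.01 for Cp, -2.59 for Fgl2 and -1.94 for Cyr61. None of these was called by limma or without the members that carry lymphatic genes, whose part in the result was otherwise not tested.

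By the edgeR interaction test, whose p-values are too small here, it also differed from that in type 2 cells for 7 named genes, none of which limma called. The excess was log2 2.62 for Cd74, 2.06 for H2-Eb1 and 1.46 for H2-Aa, and -4.15 for Lcn2, -4.69 for Igfbp5, -4.41 for Cp and -1.68 for Cyr61. Without the lymphatic members Cd74 and H2-Eb1 were still called, at 2.52 and 1.92 in the same fit, and the other 5 were not.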

How the results depend on the processing

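The 16 genotype calls in general capillary cells ranged from 0 to 26 when 1 library was left out: 8, 7, 6 and 26 without control 1, 2, 3 and 4, 0 without knockout 1 and 26 without knockout 2. Without knockout 1 edgeR still had 166 genes at unadjusted p under 0.05, and Cd74 was at log2 2.21 (adjusted p = 0.11), H2-Aa at 1.42 (0.33) and H2-Eb1 at 1.36 (0.485), the lone knockout library being assumed to vary like the controls. The count was 69 with a replicate block (32 higher, 37 lower), 45 without the filter on low counts, and 7 each with members thinned to 2000 UMIs, with the looser gate and without the 5% of members with most UMIs. It was 4 with the stricter gate (Cd74, H2-Aa, H2-Eb1 and Socs3), 3 without Car4 or Ednrb UMIs (H2-Aa, H2-Eb1 and Cp), 3 without lymphatic members (Cd74, H2-Aa and H2-Eb1) and 6 without lymphatic or haemoglobin members. RLE factors gave 16, total UMIs 20 and DESeq2 17. The cause of these moves was not tested; fewer cells entered where members were removed. The replicate numbers pair nothing known, and the block is given for completeness. Where tested, all 8 higher and 8 lower genes kept their sign in the 21 alternatives. Cd74 ran from 2.21 to 3.86 and passed in 18, and H2-Aa and H2-Eb1 passed in 20 each. H2-Q6 passed in 12 of 21, H2-Ab1 in 11, Psmb9 and H2-Q7 in 9 each, and Irf1 in 4 of 20. Of the lower genes Lyve1 passed in 13 of 21, Cyr61 in 10 of 21, and Igfbp5 and Cp in 15 of 18 each. Lcn2 passed in 15 of 19, Fgl2 in 10 of 18, Reln in 9 of 18 and Serping1 in 8 of 15. The share of kept barcodes (0.0782 percentage points higher in the knockouts) reversed to -0.0718 with 1000 genes and 10% mitochondrial UMIs, to -0.0495 and -0.0304 with cells thinned to 2000 and 1000 UMIs, and ranged from -0.0323 (without knockout 1) to 0.208 (without control 4) when 1 library was left out, also reversing at -0.00784 without control 3. The share of gated cells (3.39 percentage points higher) kept its sign, at 2.22 to 4.58 with 1 library left out, but shrank to 0.373 with 1000 genes and 10% mitochondrial UMIs and to 0.559 and 1.05 with cells thinned to 2000 and 1000 UMIs. The 31 genes of the interaction with type 2 cells ranged from 9 (without knockout 1) to 30, with 15 without control 2, fell to 10 without lymphatic members, and were 1 by limma (Esr1, with 801 genes at unadjusted p under 0.05). H2-Aa lost its call there without lymphatic members (log2 1.35, adjusted p = 0.163). The 7 with large-vessel cells ranged from 2 (without knockout 1, Igfbp5 and Cd74) to 16 (without control 4), with 12 without knockout 2, and were 2 without lymphatic members (Cytl1 and Emp2) and 0 by limma (504 at unadjusted p under 0.05). Scaling to total UMIs moved the median interaction from -0.20 to -0.10 for type 2 cells and from -0.11 to 0.04 for large-vessel cells, so the values should be read against those medians. With aerocytes no such fit was run, as too few cells were held. Over the named genes 512 of 668 values kept their direction and side of the threshold, 117 no longer passed and 39 newly passed. Depth limits all of these values: the members held a median of 1879 UMIs, and 5 of 6 libraries held 44 members or fewer.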

Other observations

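Socs3, a feedback inhibitor of cytokine signalling that was named after its values were seen, had 33.9, 58.3, 45.5 and 348 CPM in the members of control 1 to 4 and 518 and 341 CPM in knockout 1 and 2. Control 4, which also had the most Cd74 among the controls, was level with knockout 2.

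Chil1, a chitinase-like protein, had 1 UMI in the control members and 11 in the knockout members. It stood at 0, 7.28, 0 and 0 CPM in control 1 to 4 and at 96.4 and 56.9 CPM in knockout 1 and 2. Aerocytes had 0 UMIs in the controls and 9 in the knockouts, and large-vessel cells had 209 CPM in knockout 1 but 20.03 CPM in knockout 2, with 39.4 CPM in control 1. Type 2 cells carried far more Chil1, at 1199, 1108, 168 and 271 CPM in control 1 to 4 and 3686 and 1163 CPM in knockout 1 and 2, so knockout 2 lay within the range of the controls there. Fibroblasts had 26.8 to 48.6 CPM in the controls and 131 and 38.2 CPM in the knockouts. The members also held type 2 cell RNA, and its part in the Chil1 counts was not tested. The gene was below the filter in the members, so the difference was not tested.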
